A study of Homo sapiens with 6 samples.

Results

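The RNAs described here are the small nucleolar RNAs and small Cajal body RNAs of MEC-1 cells, without the SNORD115 and SNORD116 families. MEC-1 is a human B-cell line derived from chronic lymphocytic leukaemia. The members are the genes whose probe set carries a single symbol beginning with SNORA, SNORD or SCARNA, and for a symbol with several probe sets the one with the highest mean over all arrays was kept. They number 152 of 18404 genes measured, with 61 SNORA, 75 SNORD and 16 SCARNA symbols. The 40 SNORD115 and SNORD116 genes were left out. The rule uses names and mean signal, not the difference between the groups.

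The study compared MEC-1 cells carrying a lentiviral short hairpin RNA that knocks down UGT2B17 with MEC-1 cells carrying a scrambled hairpin, with 3 arrays per group. UGT2B17 encodes a UDP-glucuronosyltransferase, which conjugates androgens and other steroids. Both groups were grown in RPMI with fetal calf serum, without phenol red and without antibiotics, and both carry a lentiviral hairpin, so an untransduced culture is not among the groups. The labels call the replicates independent without saying that they were separate cultures, and do not say whether the cells were a clone or a pool, so the p-values cover no more than the spread among the 6 arrays, which may be technical.

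Box C/D RNAs (SNORD) guide ribose methylation and box H/ACA RNAs (SNORA) guide pseudouridylation, mostly of ribosomal RNA, in the nucleolus. Small Cajal body RNAs (SCARNA) guide the same modifications on spliceosomal RNAs. In human cells nearly all of them are cut out of introns of host genes, many of which encode ribosomal proteins or are non-coding transcripts kept mainly for the RNAs in their introns, such as GAS5 and the SNHG genes. By position in the RefSeq gene table, 150 of the 152 members lie within another gene, and SNORD13 and SNORD32B do not. The 150 lie in 104 genes, 27 of which contain several members.

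Many of these host genes belong to the terminal oligopyrimidine class, whose transcripts begin with a C followed by a run of pyrimidines. The starts of 5 host genes that begin in this way are shown, chosen among hosts whose members are described below. Each window runs from 10 bases before to 20 bases from the annotated start (RefSeq, GRCh38.p14), and the capitals mark the run of C and T letters that begins at the start. The windows lie at chr9:127451387-127451416 on the minus strand (RPL12), chr3:39406710-39406739 on the plus strand (RPSA), chr11:8682782-8682811 on the plus strand (RPL27A), chr19:49487598-49487627 on the plus strand (RPL13A) and chr6:85678714-85678743 on the minus strand (SNHG5).
RPL12: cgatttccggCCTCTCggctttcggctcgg
RPSA: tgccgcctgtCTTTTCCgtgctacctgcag
RPL27A: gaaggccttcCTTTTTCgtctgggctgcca
RPL13A: aaacctcctcCTTTTCCaagcggctgccga
SNHG5: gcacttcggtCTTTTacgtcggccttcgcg
A C at the start followed by pyrimidines to a run of at least 5 letters, searched on the gene's own strand, was found in 27 of the 86 containing genes with a window (31.4%), and in 10 of the 12 ribosomal protein genes among them. Over all 35116 RefSeq windows the share was 4.07%. The windows of GAS5, HSPA8, TCP1 and NOL11, hosts also described below, had no match and are not printed. The match describes these letters only.

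UGT2B17, the targeted gene, had log2 signals of 3.19, 3.27 and 3.17 in knockdown arrays, against 3.95, 3.69 and 3.91 in scrambled arrays. It was lower by 0.64 ± 0.08 on the log2 scale (SE; limma adjusted p = 0.00654, Benjamini-Hochberg over all 18404 genes), at a level among the dimmest on the array. Scrambled replicate 3 stood apart from the other arrays: its root mean square deviation from its group mean was 0.138, against 0.0771 to 0.112 for the other 5 arrays. The 6 measured B cell markers were bright, with mean log2 signals of 9.60 (CD79B) to 12.3 (MS4A1), and none passed the test. PAX5 was the one nearest to it, at -0.21 with separate groups (limma adjusted p = 0.162). Markers of T cells, monocytes, epithelium and fibroblasts were dimmer, at 3.32 (LYZ) to 8.37 (CDH1). Among them only the epithelial KRT18 passed, higher by 0.32 (limma adjusted p = 0.0494). The epithelial EPCAM, at -0.36, passed only without scrambled replicate 3 (-0.47, limma adjusted p = 0.0411). Because scrambled replicate 3 stood apart, class counts and medians are given with and without it. The same holds for named members whose value moved by over 1.5 times without it.

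Of the 152 members, 1 passed the test at a limma adjusted p under 0.05, while 3.61% of all genes passed. It was SNORA65, lower in knockdown cells, a direction in which 1.69% of all genes passed. None passed in the higher direction, against 1.92% of all genes. Members with an unadjusted p under 0.05 numbered 22, or 14.5%, while 18.2% of all genes had one. Of these, 18 were lower and 4 higher, while over all genes 9.45% were lower and 8.70% higher at that limit. The knockdown arrays lay wholly below the scrambled arrays for 18 members (11.8%), against 13.1% of all genes, and wholly above for 4 (2.63%), against 11.8% of all genes. The share of members with separate, lower values was thus close to that of all genes, and the share with separate, higher values was smaller. Without scrambled replicate 3 these shares were 16.4% and 5.92%, against 17.9% and 17.4% of all genes.

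The fold changes were small and leaned to one side. Their median was -0.09 on the log2 scale, against -0.002 over all genes, and 122 of 152 members lay below 0 (80.3%), against 50.7% of all genes. Without scrambled replicate 3 the median was -0.06 and 108 members lay below 0 (71.1%). In that fit 2 members passed, SNORA65 and SNORD74, both lower, while 4.12% of all genes passed in either direction. The members also varied more within groups than other genes did, with a median within-group SD of 0.158, against 0.098 over all genes. The unadjusted 95% interval of the log2 fold change stayed within 0.5 of 0 for 111 members and within 1 of 0 for all 152. Since each value comes from bulk RNA of a culture, fewer cells carrying an RNA and less of it per cell cannot be told apart.

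**Figure D1:**
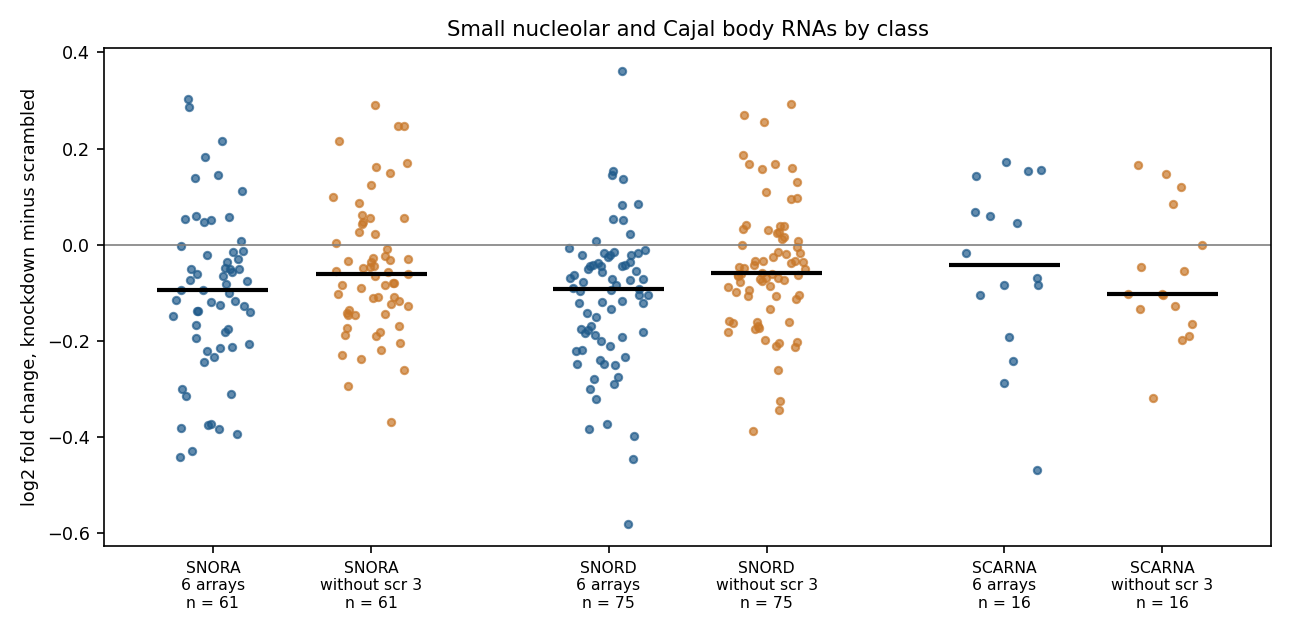
Log2 fold change (knockdown minus scrambled, vertical axis) of each member, by class, from all 6 arrays (blue) and without scrambled replicate 3 (orange); points are members and black bars are class medians. The SNORA and SNORD medians are -0.09 over 6 arrays and -0.06 without that array, and the SCARNA median is -0.04 and -0.10.

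The box H/ACA RNAs had a median log2 fold change of -0.09, with 48 of 61 below 0 and a range of -0.44 to 0.30. Without scrambled replicate 3 the median was -0.06, with 43 below 0. Knockdown arrays lay wholly below scrambled arrays for 8 of them (13.1%), the same share as the 13.1% of all genes, and wholly above for 2 (3.28%), against 11.8% of all genes. Without scrambled replicate 3 these counts were 9 (14.8%) and 4 (6.56%), against 17.9% and 17.4% of all genes.

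SNORA65, a guide for pseudouridylation of large-subunit ribosomal RNA, lies within RPL12, whose start is printed above. Its log2 signals were 7.15, 7.36 and 7.18 in knockdown arrays, against 7.61, 7.59 and 7.82 in scrambled arrays. The highest knockdown value lay below the lowest scrambled value. SNORA65 fell by 0.44 ± 0.09 on the log2 scale (SE; limma adjusted p = 0.0317), to 73.7% of its level in scrambled arrays. The call was kept without scrambled replicate 1 or 3 (adjusted p = 0.0434 and 0.0435), but not without scrambled replicate 2 or any 1 knockdown array, where the limma adjusted p was 0.0653 to 0.131. It was also lost when p was adjusted over all deposited probe sets (adjusted p = 0.111), of which 0.511% passed. RPL12 encodes a ribosomal protein of the large subunit. The probe set of that name had log2 signals of 12.91, 12.89 and 12.90 in knockdown arrays, against 12.88, 12.82 and 12.78 in scrambled arrays. Its knockdown arrays lay above the scrambled ones by 0.07 ± 0.06, which did not pass the test (limma adjusted p = 0.606). This probe set was matched by symbol alone, and its position relative to SNORA65 was not checked. Its number falls beside that of ZFAS1, a gene on chromosome 20, while RPL12 lies on chromosome 9. It may therefore not measure the gene that contains SNORA65.

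The pair of box H/ACA RNAs within RPSA, which encodes a small-subunit ribosomal protein, had similar values. SNORA62 had log2 signals of 7.59, 7.84 and 7.58 in knockdown arrays, against 7.89, 8.03 and 8.22 in scrambled arrays, a difference of -0.38 ± 0.10 (SE; limma adjusted p = 0.0883). SNORA6 had 7.45, 7.46 and 7.52 in knockdown arrays, against 7.59, 7.73 and 8.27 in scrambled arrays, a difference of -0.39 ± 0.15 (limma adjusted p = 0.217). Both pairs of groups were separate, and scrambled replicate 3 was the highest array for each. Without that array the differences were -0.29 for SNORA62 and -0.19 for SNORA6.

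Other low members of the class also moved toward 0 without scrambled replicate 3. SNORA74A, within MATR3, had log2 signals of 7.27, 7.41 and 7.32 in knockdown arrays, against 7.37, 7.54 and 8.37 in scrambled arrays, and its difference of -0.43 was -0.12 without that array. SNORA21, within RPL23, had 7.34, 7.26 and 6.93 in knockdown arrays, against 7.46, 7.41 and 7.80 in scrambled arrays, a difference of -0.38 that was -0.26 without it. Neither passed the test (limma adjusted p = 0.349 and 0.165).

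At the other end, SNORA70G, SNORA50A, SNORA16B and SNORA35 had the highest log2 fold changes of the class, from 0.30 to 0.18, and none passed the test. SNORA50A, within CNOT1, had log2 signals of 9.12, 9.20 and 9.26 in knockdown arrays, against 9.00, 9.04 and 8.67 in scrambled arrays, so its groups were separate (0.29 ± 0.10, limma adjusted p = 0.181). Its lowest array was scrambled replicate 3, without which the difference was 0.17. SNORA16B had separate groups too, at 5.14, 5.20 and 5.26 in knockdown arrays, against 5.13, 4.97 and 4.85 in scrambled arrays. SNORA35, an orphan RNA without a known ribosomal target that lies within the serotonin receptor gene HTR2C, had overlapping groups. The probe sets with the highest signal in the class, SNORA71D, SNORA23, SNORA10 and SNORA68, differed by -0.09, -0.24, -0.22 and -0.13, all with overlapping groups, and by -0.09, -0.13, -0.11 and -0.03 without scrambled replicate 3. In each of these 4, knockdown replicate 3 was the lowest array.

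The box C/D RNAs had the same median, -0.09, with 65 of 75 below 0 and a range of -0.58 to 0.36. Without scrambled replicate 3 the median was -0.06, with 53 below 0. None passed the test over 6 arrays, where the smallest limma adjusted p was 0.0625, and 9 (12.0%) had an unadjusted p under 0.05, all of them lower, against 18.2% of all genes. The groups were separate and lower for 10 (13.3%), against 13.1% of all genes, and separate and higher for 0, against 11.8%. Without scrambled replicate 3 these counts were 12 (16.0%) and 2 (2.67%), against 17.9% and 17.4% of all genes.

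The 2 lowest box C/D members, SNORD74 and SNORD79, both lie within GAS5, a non-coding host gene known to belong to the terminal oligopyrimidine class, although its RefSeq window held no such run. They guide ribose methylation of large-subunit ribosomal RNA. SNORD74 had log2 signals of 9.74, 9.78 and 9.62 in knockdown arrays, against 10.05, 10.16 and 10.68 in scrambled arrays. Its groups were separate and differed by -0.58 ± 0.15 (SE; limma adjusted p = 0.0695). Without scrambled replicate 3, the highest of the 6 arrays, SNORD74 fell by 0.39 with a limma adjusted p of 0.0296. SNORD79 had 7.05, 7.26 and 7.13 in knockdown arrays, against 7.43, 7.51 and 7.83 in scrambled arrays, a difference of -0.45 ± 0.11 (limma adjusted p = 0.0625).

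GAS5 contains 5 further members, and all 7 had log2 fold changes below 0, with a median of -0.30. SNORD75 had 7.14, 7.05 and 6.90 in knockdown arrays, against 7.23, 7.15 and 7.86 in scrambled arrays, separate by a narrow margin (-0.38, limma adjusted p = 0.274). SNORD44, which guides methylation of small-subunit ribosomal RNA, had 8.48, 8.52 and 8.30 in knockdown arrays, against 8.66, 8.38 and 9.16 in scrambled arrays, so that scrambled replicate 2 lay within the knockdown range. SNORD81 (-0.29), SNORD78 (-0.23) and SNORD77 (-0.10) had overlapping groups as well. Scrambled replicate 3 was the highest array for all 7, and without it the median was -0.16 with 6 of 7 below 0. SNORD75 was then at -0.16, SNORD44 at -0.09, SNORD78 at -0.11 and SNORD77 at 0.17. These 7 share a transcript and the same arrays, so they are not separate observations. A further 3 probe sets name GAS5 together with another of its RNAs, and these differed by -0.16, -0.35 and -0.30.

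**Figure D2:**
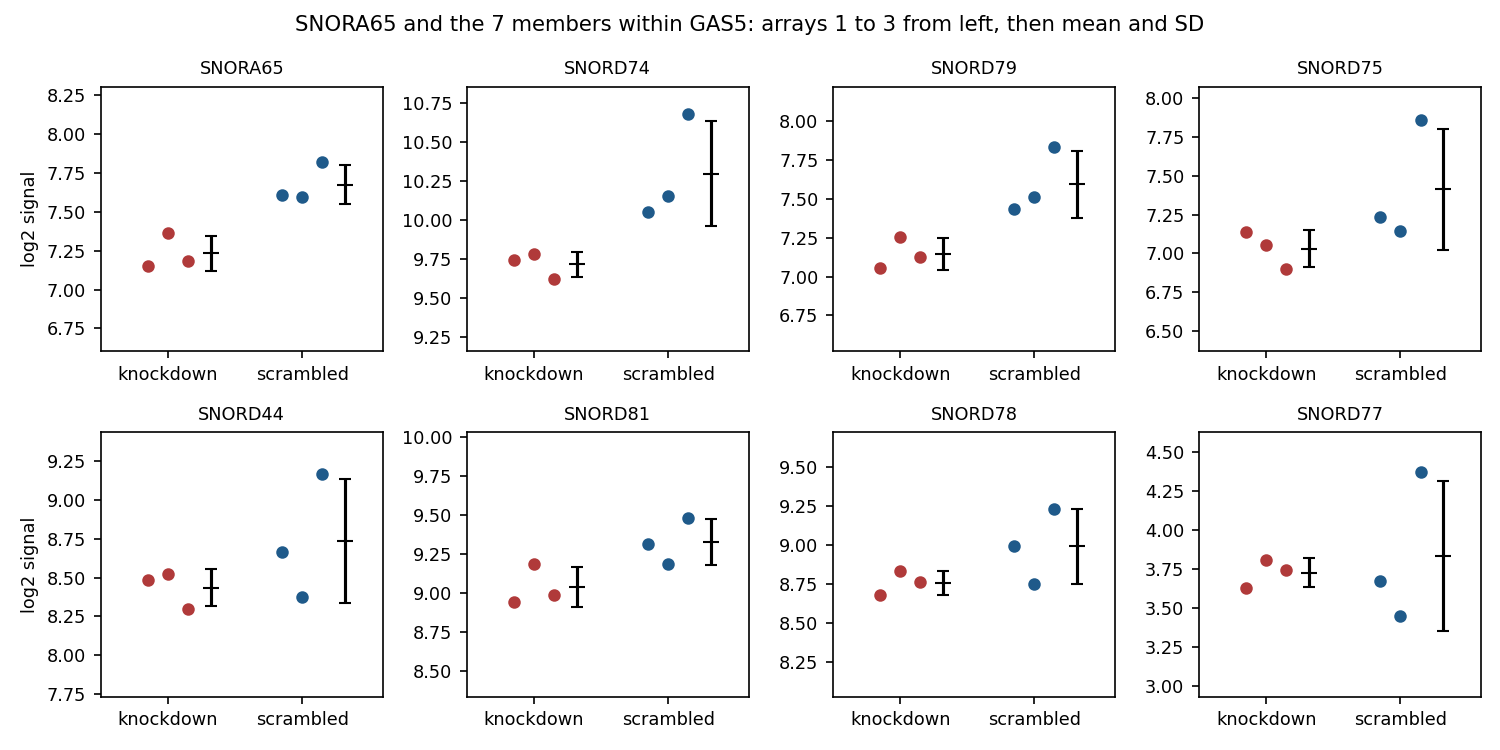
Log2 signal (vertical axis, each panel spanning the same range) of SNORA65 and the 7 members within GAS5 in knockdown arrays (red, left) and scrambled arrays (blue, right), replicates 1 to 3 from left, with the group mean and SD in black. All 3 knockdown points lie below all 3 scrambled points for SNORA65, SNORD74, SNORD79 and SNORD75, and scrambled replicate 3 is the highest point in every panel.

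Among the RNAs that act in ribosomal RNA processing, SNORD14C and SNORD14E, copies of the RNA family needed for small-subunit processing, lie within the chaperone gene HSPA8. SNORD14C had log2 signals of 9.54, 9.55 and 9.49 in knockdown arrays, against 9.61, 9.76 and 10.17 in scrambled arrays, a separate difference of -0.32 ± 0.13 (limma adjusted p = 0.227) that was -0.16 without scrambled replicate 3. SNORD14E differed by -0.19, and by 0.01 without scrambled replicate 3. SNORD13, which has its own promoter and takes part in small-subunit RNA acetylation, had 10.22, 10.10 and 10.02 in knockdown arrays, against 10.07, 10.50 and 10.33 in scrambled arrays, with overlapping groups (-0.19).

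The 4 members within RPL13A, SNORD32A, SNORD33, SNORD34 and SNORD35A, are known from rodent cells for a role in lipid-induced stress besides methylation. Their log2 fold changes ran from -0.07 to 0.14 with 2 below 0, and without scrambled replicate 3 they ran from 0.03 to 0.19 with 0 below 0. SNORD33 had log2 signals of 11.47, 11.45 and 11.12 in knockdown arrays, against 11.24, 11.39 and 11.35 in scrambled arrays, and the groups overlapped. SNORD38B was among the 4 lowest box C/D members, at -0.40 (limma adjusted p = 0.209), and was at -0.21 without scrambled replicate 3.

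The imprinted SNORD113 and SNORD114 RNAs, orphan RNAs of the MEG8 transcript, were dim, with mean log2 signals of 3.16 to 3.88. All 6 differed by less than 0.2, with a median of -0.06, or -0.02 without scrambled replicate 3, and overlapping groups in every case. The highest fold change among the box C/D members was that of SNORD56B, with 5.99, 6.62 and 7.01 in knockdown arrays, against 6.03, 6.47 and 6.04 in scrambled arrays. Its knockdown arrays spread more widely than the difference of 0.36 ± 0.23 (limma adjusted p = 0.465). The next highest, SNORD117, SNORD51 and SNORD32A, differed by 0.15, 0.14 and 0.14, with overlapping groups, and none passed the test. Without scrambled replicate 3 SNORD117 was at 0.10 and SNORD51 at 0.26.

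The Cajal body RNAs had a median log2 fold change of -0.04, with 9 of 16 below 0 and a range of -0.47 to 0.17. Without scrambled replicate 3 their median was -0.10, with 12 below 0, so leaving out that array moved it away from 0, where it moved the SNORA and SNORD medians toward 0. None passed the test (smallest limma adjusted p = 0.265). SCARNA1, within PPP1R8, had log2 signals of 6.85, 6.31 and 6.11 in knockdown arrays, against 6.48, 7.01 and 7.19 in scrambled arrays, and knockdown replicate 1 lay above scrambled replicate 1. SCARNA7, at the high end (0.17), had 10.54, 10.84 and 10.68 in knockdown arrays, against 10.82, 10.55 and 10.17 in scrambled arrays, and without scrambled replicate 3 it differed by -0.001. The groups were separate and higher for 2 (12.5%), SCARNA5 and SCARNA14, by 0.14 and 0.15, against 11.8% of all genes. They were separate and lower for 0, against 13.1% of all genes. Without scrambled replicate 3, 4 were separate and lower (25%), against 17.9% of all genes. In that setting 3 were separate and higher (18.8%), against 17.4% of all genes. SCARNA12, the brightest Cajal body probe set, had 12.38, 12.31 and 12.30 in knockdown arrays, against 12.23, 12.26 and 12.32 in scrambled arrays.

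Array by array, the median deviation of all members from their own means was -0.06, -0.02 and -0.07 in knockdown arrays, against -0.01, 0.01 and 0.13 in scrambled arrays. Scrambled replicate 3 was the array farthest from 0. It was the highest array for 42 of 75 SNORD members (56.0%) and 26 of 61 SNORA members (42.6%), but for 2 of 16 SCARNA members (12.5%), against 28.9% of all genes. Whether the classes differ in this respect was not tested. Replication-dependent histone genes, whose transcripts lack a poly(A) tail, were also highest in that array. Their median deviation was -0.09, -0.14 and -0.15 in knockdown arrays, against -0.02, 0.05 and 0.35 in scrambled arrays. Of 62 histone genes, 5 passed the test (8.06%), all lower, against 1.69% of all genes. Without scrambled replicate 3, 7 passed (11.3%), all lower, against 4.12% of all genes in either direction. Their median log2 fold change was then -0.14 with 51 below 0, against -0.24 over 6 arrays. The part of the histone genes in the members' values was not tested. In 173 microRNA genes the median deviation in scrambled replicate 3 was -0.04. In 30 other small RNA genes it was 0.13 in that array, 0.13 in knockdown replicate 1 and -0.11 in scrambled replicate 1. The median log2 fold change of these 30 genes was -0.03, with 16 below 0.

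**Figure D3:**
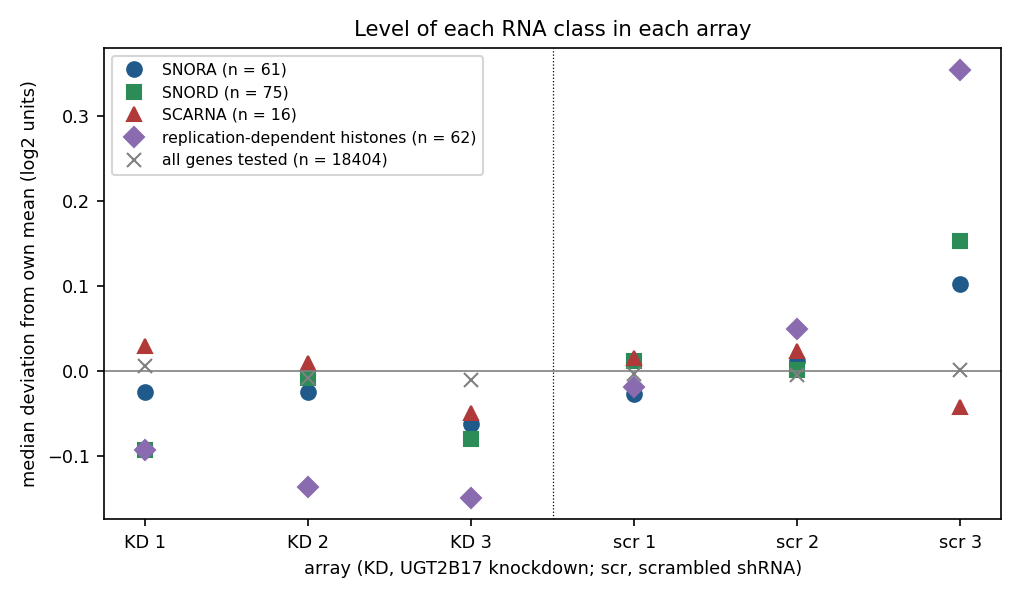
Median deviation of each class from its genes' own means over 6 arrays (vertical axis, log2 units) in each array, with knockdown arrays on the left and scrambled arrays on the right. Scrambled replicate 3 stands at 0.15 for SNORD, 0.10 for SNORA, -0.04 for SCARNA and 0.35 for replication-dependent histones.

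By kind of host, the 33 members within 19 ribosomal protein genes had a median log2 fold change of -0.13 with 29 below 0, and 25 had their highest value in scrambled replicate 3. The 31 members within 15 non-coding hosts (GAS5, MEG8, ZFAS1 and genes named SNHG) had a median of -0.09 with 30 below 0. The 86 within 70 other genes, among them non-coding ones such as EPB41L4A-AS1 and LINC03006, had a median of -0.07 with 61 below 0. Without scrambled replicate 3 all of these medians were -0.06, with 23, 22 and 61 members below 0. Of the hosts whose starts are printed above, RPL27A contains SNORA3A and SNORA3B, with a median of -0.26, or -0.08 without that array. SNHG5 contains SNORD50A and SNORD50B, at -0.12 each, with a median of -0.06 without it. None of these 4 members passed the test.

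Host signals, from probe sets matched by symbol alone, were available for 99 members, in 77 genes. Member and host were both below 0 in 56 cases and both above 0 in 4, the member alone was below 0 in 20 and the host alone in 19. Of the 77 hosts themselves 55 lay below 0 (71.4%), and whether members followed their hosts was not tested. Among the hosts, 2 passed the test, both lower, against 1.69% of all genes. AMMECR1 fell by 0.36 ± 0.06 (SE; limma adjusted p = 0.0166), while SNORD96B within it differed by -0.09 with overlapping groups. EIF1AX, a translation initiation factor, fell by 0.35 ± 0.08 (limma adjusted p = 0.0426), while SCARNA9L within it differed by -0.08, or -0.17 without scrambled replicate 3. The AMMECR1 call was lost without scrambled replicate 2 or any 1 knockdown array, where the limma adjusted p was 0.0676 to 0.0848. The EIF1AX call was lost without scrambled replicate 3 (0.0509), without scrambled replicate 2 (0.111) and without any 1 knockdown array (0.125 to 0.172). It was lost as well with arrays centred on their median (0.0526) and with the dimmest probe set per gene (0.119).

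Some hosts and members lay on opposite sides of 0, while others lay on the same side. ZFAS1, a non-coding host, had log2 signals of 10.69, 10.74 and 10.71 in knockdown arrays, against 10.59, 10.43 and 10.42 in scrambled arrays (0.23 ± 0.07, limma adjusted p = 0.118). SNORD12C within it had 7.54, 7.59 and 7.51 in knockdown arrays, against 7.62, 7.61 and 7.91 in scrambled arrays (-0.17, or -0.07 without scrambled replicate 3). Both had separate groups, in opposite directions, and neither passed the test. TCP1, a chaperonin subunit, differed by -0.48 ± 0.12 (limma adjusted p = 0.0705), and SNORA20 and SNORA29 within it differed by -0.21 and -0.18. SNORA20 was at 0.003 and SNORA29 at -0.14 without scrambled replicate 3. NOL11, which acts in small-subunit assembly, also differed by -0.48, beside -0.31 for SNORA38B within it, and without scrambled replicate 3 these were -0.31 and -0.22.

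**Figure D4:**
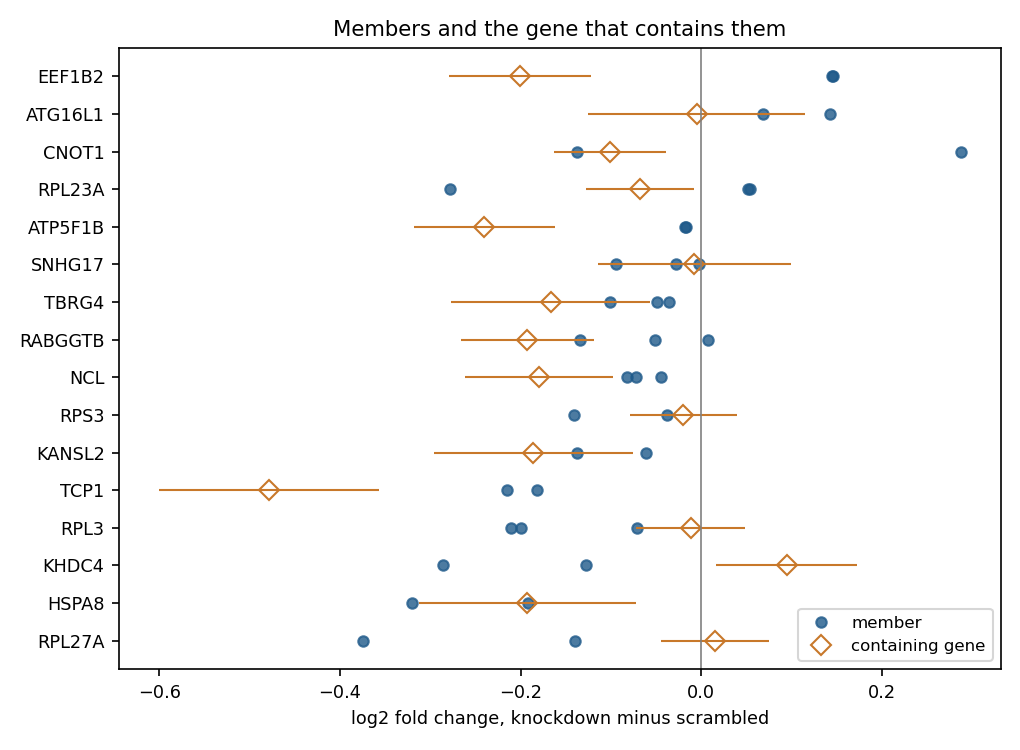
Log2 fold change (knockdown minus scrambled, horizontal axis) of each host gene with several measured members (orange diamonds, bars are ± 1 SE) and of the members within it (blue points). The RPL27A diamond lies near 0 with both members to its left, and the TCP1 diamond at -0.48 lies to the left of both of its members.

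The proteins that bind and assemble these RNAs were examined from 5 lists, with 32 of 38 listed genes measured. None passed the test by limma, 8 had an unadjusted p under 0.05 (25%, with 7 lower and 1 higher), against 18.2% of all genes, and 23 lay below 0 with a median of -0.10, or -0.03 without scrambled replicate 3. That array was the highest for 24 of the 32. DKC1, the pseudouridine synthase of box H/ACA particles, had log2 signals of 8.48, 8.65 and 8.56 in knockdown arrays, against 8.71, 8.81 and 9.20 in scrambled arrays (-0.35 ± 0.12, limma adjusted p = 0.171). NHP2, a core protein of the same particles, had 9.34, 9.36 and 9.35 in knockdown arrays, against 9.43, 9.55 and 9.92 in scrambled arrays (-0.28, limma adjusted p = 0.235). GAR1 and NOP10 complete that core and differed by -0.14 and -0.01. The box C/D methyltransferase FBL and its partner NOP58 differed by -0.11 and -0.08. Of the assembly factors, NAF1 and SHQ1 differed by 0.05 and 0.08, and of the Cajal body proteins, COIL, WRAP53 and NOLC1 differed by -0.10, -0.16 and -0.18. All 11 of these genes moved by over 1.5 times without scrambled replicate 3: DKC1 was at -0.20, NHP2 at -0.14, GAR1 at -0.06, NOP10 at 0.09, FBL at -0.06, NOP58 at 0.009, NAF1 at 0.08, SHQ1 at 0.19, COIL at -0.01, WRAP53 at -0.04 and NOLC1 at 0.02. NOP56 and SNU13 were not measured on probe sets of a single gene.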

How the data were processed

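Total RNA was extracted with Trizol and an RNeasy column and biotin-labelled with a whole-transcript kit, per the labels' protocols. Columns of this kind retain short RNAs incompletely, and a probe set within an intron can also detect unspliced host RNA, so the signal is not a count of mature molecules. The deposited values are log2 signals of 32321 probe sets made with RMA, per the submitters' processing notes. The sources used here give no RMA version. Values ran from 2.20 to 14.3 and were used as deposited. RMA compresses differences of dim probe sets, and its quantile step hides shifts shared by most genes. No batch information was used, since the sources give none, and the number of arrays limits the precision.

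Names came from the platform annotation, in which 19158 probe sets have 1 symbol, 1388 have several and 11775 are not listed. For each of 18404 genes the probe set with the highest mean was kept. A further 51 probe sets that name a member RNA with other genes were left out, among them all SNORD3 copies, SNORD22 and SNORA73A. All 152 members matched the RefSeq gene table (GRCh38.p14). Hosts were the genes that contain a member by position, without regard to strand, which that table does not give. Host and particle-gene signals, such as that of NHP2, came from probe sets matched by symbol alone. A kept probe set therefore need not lie at the gene's own locus.

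Groups came from the labels. The 3 knockdown and 3 scrambled arrays were compared in R 4.3.3 by linear models on all genes (limma 3.58.1, eBayes defaults, two-sided, Benjamini-Hochberg over all 18404 genes, adjusted p under 0.05), tested on simulated data. The labels name no pairs, and the arrays were not treated as pairs. Same-number correlations of deviations were -0.054, -0.067 and -0.033, and those between different numbers were -0.044 to 0.099. Such values cannot show whether arrays were handled in pairs. The alternatives were other scalings, filters, variance priors, array weights, probe set choices, thresholds, a replicate block and leaving out each array. Genes named were drawn from those past the threshold, the highest, lowest and brightest of each class, processing RNAs, particle proteins and the hosts with most members. Some of these, such as SNORD45A, SNORD28, SCARNA4 and NCL, are not described. The GAS5 members, SNORA62, SNORD12C with ZFAS1, SNORA20 and SNORA29 with TCP1, SNORA38B with NOL11, SCARNA5, and the RPL13A, RPL27A and SNHG5 groups were named after their values were seen. The members and lists were chosen with earlier results of these data known.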

Additional observations from a re-analysis of the deposited data

How the results depend on the processing

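Array weights changed the counts most. With them, limma called 6 SNORA members lower and 2 higher, 11 SNORD lower and 1 higher, 3 SCARNA lower, 14 hosts lower and 4 higher, and 4 particle genes lower and 2 higher, while over all genes 1709 were called lower and 1802 higher, against 311 and 354 with equal weights. The weights ran from 0.250 for scrambled replicate 3 to 6.12 for scrambled replicate 2. Adjusting over all deposited probe sets (also when several-gene probe sets are counted) left 0 SNORA and 0 hosts called, and with the replicate block these counts were 0 and 0, with 178 and 189 calls over all genes. The labels do not say that same-numbered arrays were handled together, and the block changed no SNORD, SCARNA or particle-gene count. Quantile normalisation once more, or testing only genes above the median level, gave 1 SNORD called lower, SNORD79, with 358 genes lower and 396 higher, and 380 and 416, over all genes tested. The dimmest probe set per gene gave 1 host called higher, and a threshold of 0.1 gave 2 SNORA and 2 SNORD lower, with 595 genes lower and 612 higher over all genes. The SCARNA median was 0.021 over the genes above the median level and -0.086 with array weights. Leaving out 1 array gave 0 to 1 SNORA, 0 to 3 SNORD and 0 to 3 hosts called lower, while over all genes 77 to 368 were lower and 75 to 391 higher, with SNORA medians of -0.15 to -0.061 and SCARNA medians of -0.10 to 0.013. The SNORD median stayed below 0 under all the settings run.

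Under these settings 70 genes were checked, and 17 of them changed sign, in 34 fits. In none of these was the changed value called. The 70 leave out some genes described above, among them SCARNA5, SNORD96B, SNORD34, SNORD35A and the members within RPL27A and SNHG5. SNORD34 and SNORD35A also changed sign, from below 0 to above 0 without scrambled replicate 3. The values that follow are those of the 70 genes. Leaving out 1 array in turn, the log2 fold changes that crossed 0 ran from -0.0012 to 0.33 for SCARNA7, -0.22 to 0.075 for SNORA71D, -0.26 to 0.046 for SNORA68, -0.041 to 0.14 for SNORD33, -0.10 to 0.040 for SNORD114-6, -0.15 to 0.052 for SNORD114-26, -0.29 to 0.0069 for SNORD14E, -0.14 to 0.0089 for NOP58, -0.14 to 0.088 for NOP10, -0.35 to 0.023 for NOLC1, -0.023 to 0.0074 for RPL3, -0.093 to 0.11 for SNHG17, -0.29 to 0.17 for SNORD77 and -0.35 to 0.0029 for SNORA20. With array weights the values that changed sign were -0.034 for SNORD33, 0.024 for SNORD114-2, 0.093 for SNORD113-4, 0.074 for SNORD114-26, 0.013 for SNORD14E, 0.040 for SNHG17, 0.0086 for SNORD44 and 0.25 for SNORD77. With quantile normalisation once more they were 0.0012 for SNORD114-6, 0.0093 for NOP10 and 0.0092 for SNHG17. With arrays centred on their median 1 changed sign, at -0.0020 for SNORD33. The causes were not tested. Dim probe sets such as SNORD113 and SNORD114, near the bottom of the signal range, limit what can be seen of these RNAs.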

Other observations

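The 51 probe sets that name a small nucleolar or Cajal body RNA together with another gene, left out above, had a median log2 fold change of -0.14 with 41 below 0. None was called over all deposited probe sets (smallest limma adjusted p = 0.117), where 0.511% of all probe sets were called. Of the 51, 10 had an unadjusted p under 0.05. In the fit over the 18404 genes, 18.2% of genes had one. Of the related RNAs that are no members, TERC, the box H/ACA RNA of telomerase, had log2 signals of 10.02, 9.93 and 9.91 in knockdown arrays, against 9.60, 9.75 and 9.67 in scrambled arrays, separate by 0.28 ± 0.07 (limma adjusted p = 0.0627). RPPH1, the RNA of ribonuclease P, had 9.50, 9.41 and 9.32 in knockdown arrays, against 9.58, 9.67 and 9.83 in scrambled arrays, a difference of -0.28 (limma adjusted p = 0.116). Both were named after their values were seen.

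The members with a second probe set of their own number 4. For SNORA15 the kept probe set differed by -0.05 and the other by -0.30, while those of SCARNA9L differed by -0.08 and -0.08.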
